A study of Homo sapiens with 5 samples.

Results

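The collagen genes are the protein-coding genes whose symbol has the form COL, a number, A and a number, and 44 of the 60651 genes in the files met this rule. The rule itself reads symbols, but the family was selected on fold changes and adjusted p-values of its members in the contrast of USP17 siRNA with control siRNA, seen in earlier results of these data. The fold changes and calls of its members in that contrast are therefore given as a description of these libraries. They support no claim that the family stands apart. The RNA came from COLO 320DM, a human colorectal adenocarcinoma cell line. In the USP17 siRNA group (n = 3) the cells had been transfected with siIDT, sino4 or siSMPLT, and in the control siRNA group (n = 2) with siL2 or siNT. The series names siNT and L2 as non-silencing controls, and the remaining duplexes were taken as the ones against USP17, a deubiquitinase. Every library thus stands for a different siRNA, and no label says that the cultures were separate. The p-values below therefore rest on library-to-library spread alone, and that spread may be technical.

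Collagens are secreted or membrane-bound proteins built from chains that wind into a helix, and each gene encodes a single kind of chain. Fibrillar collagens form the cables of connective tissue, collagen IV forms the sheet of the basement membrane on which epithelial cells sit, and FACIT collagens decorate fibrils. In the gut most fibrillar collagen is made by fibroblasts, while epithelial cells contribute basement membrane and transmembrane collagens. Chains are hydroxylated and glycosylated in the endoplasmic reticulum, exported in large carriers, trimmed outside the cell, cross-linked, and bound by integrins and discoidin domain receptors.

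Reads in genes numbered 31704821 to 36276143 per library. Levels are given as CPM, a gene's reads scaled to a common library size. A gene with 0 reads may still stand at up to 3 reads, which is 0.0849 to 0.0938 CPM. The 26 protein-coding USP17L genes, which encode USP17, had 0 reads in every library, so the labels could not be checked on the target. The share of reads that fell on no gene was 7.05% to 7.49% with USP17 siRNA and 6.37% to 6.58% with control siRNA. Its part in the results was not tested. Of 8 markers of colorectal epithelium, CDX2 averaged 1652 CPM with USP17 siRNA and 2052 CPM with control siRNA. CDH17, an intestinal cadherin, rose to 49.9 CPM with USP17 siRNA, against 27.2 CPM with control siRNA. The keratin gene KRT8 averaged 66.45 CPM with USP17 siRNA and 76.7 CPM with control siRNA, and KRT18 averaged 62.6 and 69.1 CPM. EPCAM averaged 2.56 and 2.25 CPM, and KRT20 4.84 and 2.85 CPM, in the same order. CDH1, the E-cadherin gene, had 1 to 6 reads and VIL1, a brush border gene, 3 to 7 reads in each library, so both were near 0.

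Of the 44 collagen genes, 25 had enough reads to be tested. Another 14 had at most 16 reads in any library. COL5A3, COL6A6, COL17A1, COL22A1 and COL23A1 had 0 reads in all 5 libraries. By edgeR's quasi-likelihood test with Benjamini-Hochberg adjustment over all genes, 5 collagen genes were higher and 2 lower with USP17 siRNA at an adjusted p under 0.05. Over all 16341 genes tested, 10.5% passed this threshold, 4.64% higher and 5.82% lower. The genes that rose were COL10A1, COL9A1, COL24A1, COL14A1 and COL5A2, and those that fell were COL13A1 and COL26A1. The median log2 fold change of the 25 tested members was 0.10, against 0.01 over all tested genes, and single members ranged from -0.76 to 2.91. Without siIDT or sino4, 3 collagen genes were higher. The lower count was 0 without sino4 and 1 without siIDT or siSMPLT. Over all tested genes the counts also fell, from 759 higher and 951 lower to 135 and 214 without siIDT. They were 50 and 80 without sino4, and 425 and 616 without siSMPLT. Groups did not overlap in 10 of the 25, against 45.9% of all tested genes. Of these, 7 were higher with USP17 siRNA and 3 lower, against 23.3% and 22.6% of all tested genes.

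**Figure D1:**
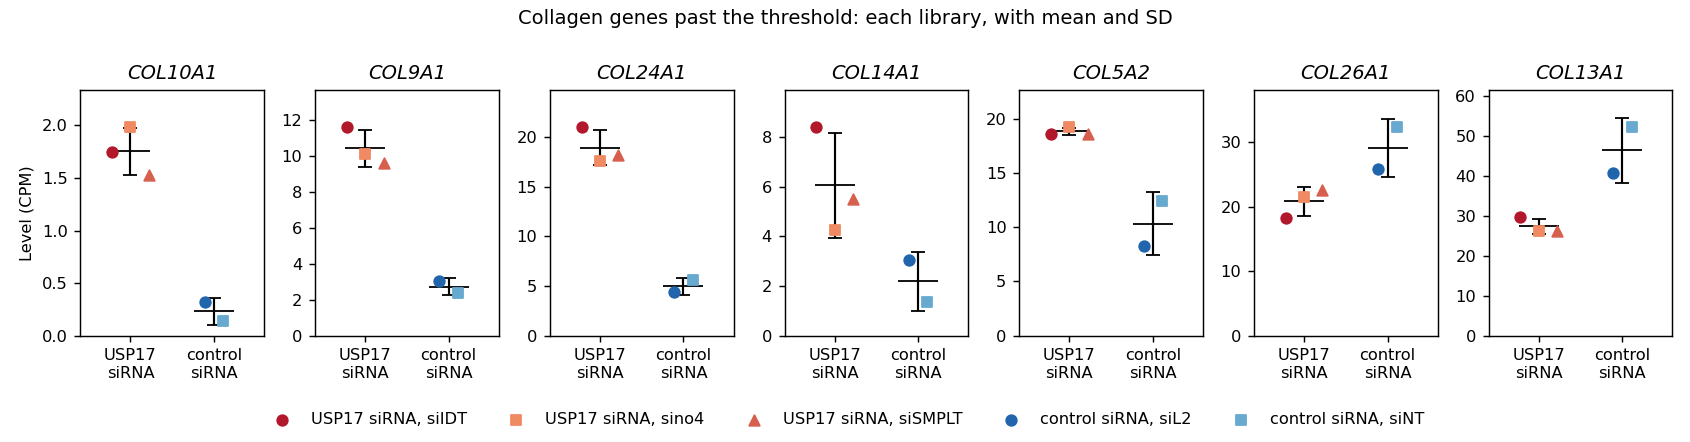
Level in CPM (linear axis from 0) of the 7 collagen genes past the threshold, in order of fold change. Points are libraries, horizontal bars group means and whiskers SD (n = 3 USP17 siRNA, n = 2 control siRNA); the groups do not overlap in any panel, and COL10A1 stands at 1.53 to 1.98 CPM with USP17 siRNA against 0.142 to 0.321 CPM with control siRNA.

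COL10A1, which encodes the short-chain network collagen of hypertrophic cartilage, had the largest fold change of the tested members. It lies on chromosome 6 from 116118923 to 116158747 on the minus strand (GENCODE 29, GRCh38). It had 57, 64 and 49 reads in siIDT, sino4 and siSMPLT, against 11 and 5 reads in siL2 and siNT. Its level was 1.75 ± 0.225 CPM (SD, n = 3) with USP17 siRNA and 0.231 ± 0.127 CPM (SD, n = 2) with control siRNA. All libraries of the USP17 siRNA group lay above both controls. It differed by 2.91 ± 0.35 (SE) on the log2 scale (edgeR, adjusted p 0.00476). The gene overlaps NT5DC1, which runs on the opposite strand and stood at 53.6 CPM with USP17 siRNA and 57.4 CPM with control siRNA (log2 fold change -0.10, adjusted p 0.442, edgeR). COL10A1 had only 0 to 3 reads on its opposite strand in any library. COL8A2, its short-chain relative in Descemet's membrane of the cornea, had 4 to 13 reads and a log2 fold change of 1.13 that did not pass (adjusted p 0.154, edgeR).

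COL9A1 encodes a chain of collagen IX, a FACIT collagen that coats cartilage fibrils. The gene is found on chromosome 6 from 70215061 to 70303083 on the minus strand. It measured 11.6, 10.1 and 9.6 CPM in siIDT, sino4 and siSMPLT, against 3.07 and 2.38 CPM in siL2 and siNT. The lowest library with USP17 siRNA was thus well above the higher control. It differed by 1.94 ± 0.17 (SE) on the log2 scale (edgeR, adjusted p 0.00215). The partner chains of collagen IX did not pass. COL9A2 measured 0.673, 0.620 and 0.532 CPM in siIDT, sino4 and siSMPLT, against 0.876 and 0.510 CPM in siL2 and siNT. COL9A3 measured 0.214, 0.248 and 0.313 CPM in siIDT, sino4 and siSMPLT, against 0.321 and 0.283 CPM in siL2 and siNT. In both genes the groups overlapped. Log2 fold changes were -0.18 for COL9A2 and -0.22 for COL9A3 (adjusted p 0.753 and 0.758, edgeR), and whether they differ from that of COL9A1 was not tested. COL19A1, a FACIT collagen gene 5085 bases away, did not pass (adjusted p 0.564, edgeR). It was at 1.04, 1.74 and 2.25 CPM in siIDT, sino4 and siSMPLT, against 1.02 and 3.62 CPM in siL2 and siNT. Here the controls enclosed the USP17 libraries, and the log2 fold change was -1.11 without siL2 (adjusted p 0.0495) and 0.71 without siNT. On the other side of COL9A1 the nearest tested gene, FAM135A, fell by 0.69 on the log2 scale (adjusted p 0.0127, edgeR).

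COL24A1 encodes a fibrillar collagen known from developing bone in mouse. Its position is on chromosome 1 from 85729233 to 86156943 on the minus strand. It measured 21.0, 17.6 and 18.2 CPM in siIDT, sino4 and siSMPLT, against 4.38 and 5.55 CPM in siL2 and siNT. Every USP17 library was more than 3 times the higher control. The gene differed by 1.93 ± 0.15 (SE) on the log2 scale (edgeR, adjusted p 0.00146). Its neighbour ODF2L, 189881 bases away, was higher by 0.50 (adjusted p 0.0191, edgeR), while ZNHIT6 on the other side had a log2 fold change of 0.15 (adjusted p 0.279, edgeR). In the 12 other settings tried, COL10A1, COL9A1 and COL24A1 kept their direction and their call.

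The promoter windows of these genes, 250 bases before to 50 after an annotated start (RefSeq, GRCh38.p14), are shown because these genes had the largest fold changes of the family. Windows were at hand for 32 of the 44 members, some with several starts. Capitals mark a TATAAA match. The sequences read 5′ to 3′ along the gene, all on the minus strand. COL10A1 has 3 windows, of which chr6:116126083-116126382 is shown, the COL9A1 windows are chr6:70303035-70303334 (upstream start) and chr6:70283148-70283447 (downstream start), and of the 2 COL24A1 windows chr1:86156723-86157022 is shown.
COL10A1: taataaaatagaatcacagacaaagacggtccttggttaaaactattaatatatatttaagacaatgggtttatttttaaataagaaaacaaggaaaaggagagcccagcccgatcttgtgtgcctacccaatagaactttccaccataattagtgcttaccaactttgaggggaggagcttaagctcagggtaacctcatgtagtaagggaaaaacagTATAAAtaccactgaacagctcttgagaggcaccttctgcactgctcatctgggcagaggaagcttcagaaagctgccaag
COL9A1 upstream: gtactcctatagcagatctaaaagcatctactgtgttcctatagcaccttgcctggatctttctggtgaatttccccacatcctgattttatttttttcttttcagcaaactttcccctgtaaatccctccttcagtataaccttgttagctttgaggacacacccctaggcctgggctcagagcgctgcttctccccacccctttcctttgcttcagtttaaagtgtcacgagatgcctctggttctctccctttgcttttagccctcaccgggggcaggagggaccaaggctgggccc
COL9A1 downstream: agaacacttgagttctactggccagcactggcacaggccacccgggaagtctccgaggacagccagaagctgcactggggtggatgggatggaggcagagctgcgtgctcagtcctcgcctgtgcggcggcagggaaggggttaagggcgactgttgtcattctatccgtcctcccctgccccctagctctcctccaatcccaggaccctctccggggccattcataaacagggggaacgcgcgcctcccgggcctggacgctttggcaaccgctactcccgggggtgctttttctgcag
COL24A1: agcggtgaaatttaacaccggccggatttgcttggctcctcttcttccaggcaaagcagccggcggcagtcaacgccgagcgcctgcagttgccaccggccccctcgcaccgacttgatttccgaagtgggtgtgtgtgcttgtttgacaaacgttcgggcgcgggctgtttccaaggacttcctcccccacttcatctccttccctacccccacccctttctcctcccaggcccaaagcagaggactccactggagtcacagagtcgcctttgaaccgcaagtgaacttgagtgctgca
The COL10A1 window shown had 2 CpG pairs and a G and C content of 40.3%, with TATAAA beginning 31 bases before the start. Another COL10A1 window also held TATAAA, 30 and 22 bases before its start, and the remaining one did not. The upstream COL9A1 window had 3 CpG pairs and the downstream window 16, and the COL24A1 window had 18. TATAAA on either strand occurred in 11.5% of all 35116 windows and in 8 of the 44 windows of collagen genes. Searches on both strands for AACAAT, a core bound by SOX factors, and ACCACA, a core bound by RUNX factors, found neither in the 4 windows shown, while the COL24A1 window not shown held AACAAT on the reverse strand 27 bases before its start. AACAAT is in 10.1% and ACCACA in 13.1% of all windows. ATCAAAG, a core bound by TCF and LEF factors, was in 0 of the 44 collagen windows and in 2.62% of all. TATAAA and its reverse complement can overlap, and such overlaps were counted once per window.

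COL5A2 encodes a chain of collagen V, which sets the diameter of collagen I fibrils. It lies on chromosome 2 from 189031896 to 189225312 on the minus strand. It measured 18.6, 19.2 and 18.6 CPM in siIDT, sino4 and siSMPLT, against 8.26 and 12.4 CPM in siL2 and siNT. The USP17 libraries were nearly level and the controls lay apart. The gene differed by 0.86 ± 0.16 (SE) on the log2 scale (edgeR, adjusted p 0.0175). Leaving out siIDT (adjusted p 0.0639, edgeR) or sino4 (0.0878) ended the call. Its partner chain COL5A1 measured 0.795, 0.929 and 0.719 CPM in siIDT, sino4 and siSMPLT, against 0.701 and 1.33 CPM in siL2 and siNT (log2 fold change -0.32, adjusted p 0.556, edgeR). COL5A1 carried more reads on its opposite strand, 133, 164 and 205 in siIDT, sino4 and siSMPLT against 283 and 243 in siL2 and siNT. COL3A1, which encodes the fibrillar collagen of vessel and gut walls and lies 19150 bases from COL5A2 on the opposite strand, averaged 25.0 CPM with USP17 siRNA and 28.8 CPM with control siRNA and did not pass (log2 fold change -0.20, adjusted p 0.353, edgeR).

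COL14A1 encodes a FACIT collagen of tendon and skin. Its position is on chromosome 8 from 120059780 to 120372036 on the plus strand. It measured 8.38, 4.24 and 5.50 CPM in siIDT, sino4 and siSMPLT, against 3.04 and 1.36 CPM in siL2 and siNT. The libraries of both groups were widely spread, with siL2 not far below sino4. The gene differed by 1.46 ± 0.37 (SE) on the log2 scale (edgeR, adjusted p 0.0428). The call was lost without siIDT (adjusted p 0.128, edgeR), sino4 (0.0789), siSMPLT (0.0840) or siNT (0.0921), and with RSEM counts (0.0501). COL12A1, another FACIT collagen and the fourth of the family by level, was likewise highest in siIDT and lowest in siNT. It measured 43.4, 26.4 and 23.5 CPM in siIDT, sino4 and siSMPLT, against 25.6 and 14.5 CPM in siL2 and siNT. Here siL2 lay among the USP17 libraries, and the log2 fold change of 0.64 ± 0.30 (SE) did not pass (adjusted p 0.198, edgeR). It passed without siL2 (1.10, adjusted p 0.0488).

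COL13A1, which encodes a transmembrane collagen of cell adhesions and the neuromuscular junction, fell. It lies on chromosome 10 from 69801867 to 69964275 on the plus strand. It measured 29.6, 26.1 and 26.2 CPM in siIDT, sino4 and siSMPLT, against 40.6 and 52.1 CPM in siL2 and siNT. All USP17 libraries were below both controls. The gene differed by -0.76 ± 0.12 (SE) on the log2 scale (edgeR, adjusted p 0.0109), and lost its call without sino4 (adjusted p 0.0676). COL25A1, another transmembrane collagen, was at 1.95 ± 0.702 CPM (SD, n = 3) with USP17 siRNA and 0.995 ± 0.286 CPM (SD, n = 2) with control siRNA, and its log2 fold change of 0.97 did not pass (adjusted p 0.102, edgeR).

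COL26A1, a gene of the extracellular matrix identified in mouse testis and ovary, was lower. It lies on chromosome 7 from 101362820 to 101559024 on the plus strand. It measured 18.3, 21.4 and 22.6 CPM in siIDT, sino4 and siSMPLT, against 25.9 and 32.3 CPM in siL2 and siNT. The groups did not overlap, and siSMPLT and siL2 lay close. The gene differed by -0.48 ± 0.13 (SE) on the log2 scale (edgeR, adjusted p 0.0489). This call was lost in 7 of 12 alternatives, among them leaving out siIDT (0.147), sino4 (0.155), siSMPLT (0.0703) or siNT (log2 fold change -0.32, adjusted p 0.128, edgeR).

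**Figure D2:**
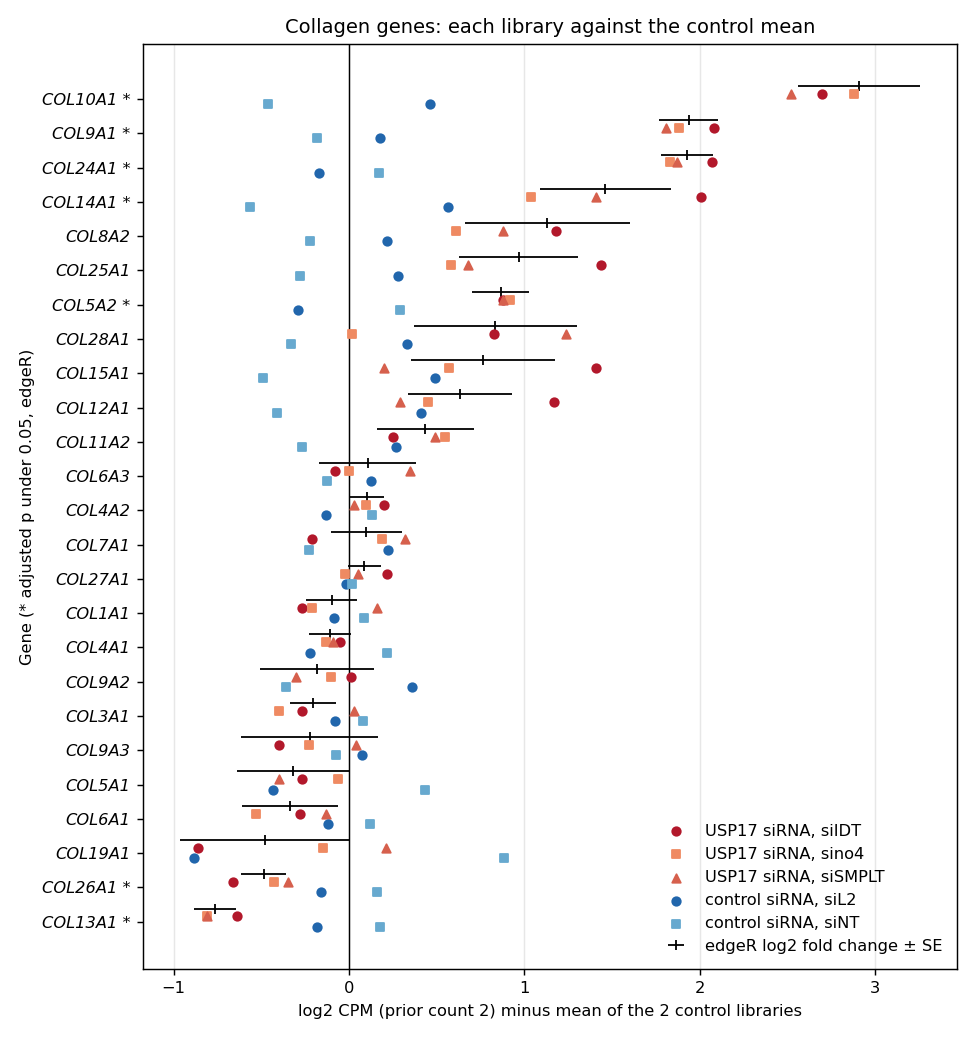
Each tested collagen gene (rows, in order of fold change) by library, as log2 CPM with a prior count of 2 minus the mean of both control libraries; black bars are edgeR's log2 fold change ± SE and asterisks mark an adjusted p under 0.05. Points of siIDT, sino4 and siSMPLT sit together at 1.81 to 2.08 for COL9A1, while the controls lie far apart for COL19A1.

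Of the basement membrane genes, COL4A2 ranked 1 and COL4A1 ranked 3 in the family by the mean level over all 5 libraries, and neither passed. On the TPM scale, which divides reads by transcript length and so allows levels of different genes to be compared, COL4A2 was at 35.4, 32.7 and 32.0 TPM in siIDT, sino4 and siSMPLT, against 27.04 and 33.5 TPM in siL2 and siNT. COL4A1, which starts beside it on chromosome 13 on the opposite strand and is its partner in the collagen IV trimer, was at 27.9, 24.7 and 25.3 TPM in siIDT, sino4 and siSMPLT, against 22.5 and 30.8 TPM in siL2 and siNT. In both genes the groups overlapped. Log2 fold changes were 0.10 ± 0.10 (SE) for COL4A2 and -0.11 ± 0.12 (SE) for COL4A1 (adjusted p 0.524 and 0.606, edgeR). COL4A1 passed without siL2 (-0.31, adjusted p 0.0319) and turned to 0.13 without siNT. COL4A2 turned to -0.02 without siL2. The ratio of COL4A2 to COL4A1 in TPM was 1.27, 1.32 and 1.26 in siIDT, sino4 and siSMPLT, against 1.203 and 1.09 in siL2 and siNT. The other collagen IV genes, COL4A3 to COL4A6, had at most 6 reads in any library.

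After COL4A2, the order by mean TPM over all libraries was COL13A1, COL4A1, COL12A1, COL26A1, COL27A1, COL3A1, COL1A1 and COL9A1. COL13A1 was at 20.4 ± 1.49 TPM (SD, n = 3) with USP17 siRNA and 35.6 ± 3.61 TPM (SD, n = 2) with control siRNA, and it was the highest collagen in both control libraries, above COL4A2 and COL4A1. In all USP17 siRNA libraries it stood below both. COL27A1, a fibrillar collagen of cartilage, was at 9.37, 8.33 and 8.63 TPM in siIDT, sino4 and siSMPLT, against 7.86 and 8.53 TPM in siL2 and siNT (log2 fold change 0.09, adjusted p 0.588, edgeR). COL1A1, a chain of the main collagen of skin and bone, was at 6.54 TPM with USP17 siRNA and 6.75 TPM with control siRNA (log2 fold change -0.10, adjusted p 0.701, edgeR). Its partner COL1A2 had 0 reads in 4 libraries and 1 read in siNT. From COL26A1 to COL1A1 each gene's libraries overlapped those of the next in this order. Summed over the family, the level was 163, 144 and 148 TPM in siIDT, sino4 and siSMPLT, against 143 and 162 TPM in siL2 and siNT. The groups overlapped in this sum.

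**Figure D3:**
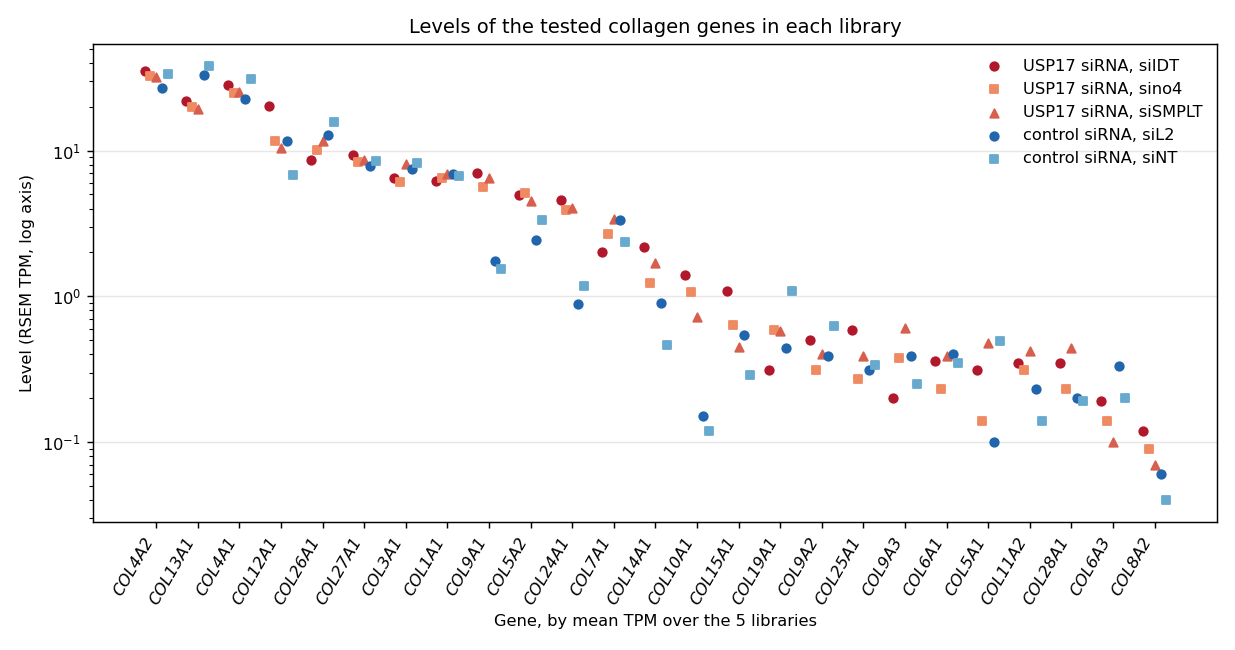
Level of each tested collagen gene in every library, as RSEM TPM on a log axis, ordered by the mean over the 5 libraries. Points are single libraries; COL4A2 is at 27.04 to 35.4 TPM, below COL13A1 in both control libraries, and COL9A1 and COL24A1 show the USP17 siRNA libraries clear of both controls.

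The remaining tested members did not pass. COL7A1, the anchoring fibril collagen beneath epithelia, was at 5.54 ± 1.02 CPM (SD, n = 3) with USP17 siRNA and 5.17 ± 1.15 CPM (SD, n = 2) with control siRNA. COL15A1, a multiplexin of basement membrane zones, was at 3.98, 2.199 and 1.69 CPM in siIDT, sino4 and siSMPLT, against 2.07 and 1.02 CPM in siL2 and siNT, with siL2 above siSMPLT. COL11A2 and COL28A1 had log2 fold changes of 0.44 and 0.83 (adjusted p 0.337 and 0.276, edgeR). The beaded filament genes COL6A1 and COL6A3 had 18 to 32 reads and log2 fold changes of -0.33 and 0.11 (adjusted p 0.463 and 0.838, edgeR). That these genes did not pass does not show that they are unchanged, and the part of read depth was not tested. By class, 2 of 7 tested fibrillar genes, 2 of 6 FACIT genes and 1 of 2 short-chain genes were higher. Of the transmembrane genes 1 of 2 was lower, as was 1 of 2 genes classed as other, COL26A1. Over all tested genes 4.64% were higher and 5.82% lower, and the classes are small.

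The median absolute log2 difference between siL2 and siNT was 0.44 over the 25 members and 0.19 over all tested genes. Many members have few reads, and whether that plays a part was not tested. The log2 differences between the controls were taken with a prior count of 2, which shrinks those of low genes. In CPM the controls were at least 2-fold apart in 4 members, COL10A1, COL14A1 and COL15A1 (siL2 higher) and COL19A1 (siNT higher). siL2 was above siNT in 13 members and below it in 12. Among the USP17 libraries siIDT was the highest in 12 of 25. The median log2 difference from the control mean was 0.20, 0.02 and 0.21 in siIDT, sino4 and siSMPLT. All USP17 libraries are set against the same controls, so these values share them.

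RSEM's mean transcript length, which moves with the mix of isoforms, is given for the genes with the largest fold changes. For COL9A1 it was 2313, 2442 and 2042 bases in siIDT, sino4 and siSMPLT, against 2427 and 2240 bases in siL2 and siNT, and the groups overlapped. For COL10A1, with few reads, it was 1775, 2693 and 3048 bases in siIDT, sino4 and siSMPLT, against 3289 and 1805 bases in siL2 and siNT, again with overlap. For COL24A1 it was 6802, 6536 and 6805 bases in siIDT, sino4 and siSMPLT, against 6809 and 6820 bases in siL2 and siNT. These groups did not overlap, but siIDT and siSMPLT lay within a few bases of siL2.

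The 3' untranslated regions (UTRs) were searched on the transcript strand for ATCACTC and TCACTCA. Both 7-mers were picked because earlier results of these data had shown lower fold changes in genes that hold them, so the medians below are a description. The median log2 fold change was -0.11 over the 1007 carriers of ATCACTC and -0.01 over the other genes searched, of 12513 in all. It was -0.08 over the 1545 carriers of TCACTCA. Of the 25 tested collagen genes, 0 held ATCACTC, against 8.05% of genes searched. TCACTCA was in 1, against 12.3%. None of the 7 genes past the threshold held either. The carrier was COL19A1, with the site at base 795 of its UTR, shown with the 7-mer in capitals because it is the only one among the tested members.
COL19A1: tgtggtccccTCACTCAgtctctcatt

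Genes that make, move, bind or break down collagen were followed on 8 lists of 111 genes, of which 86 were tested. Of these, 1 gene was higher and 13 were lower, against 4.64% higher and 5.82% lower of all tested genes. The higher count was 5 with DESeq2's Wald test and 3 with limma-voom. Over all tested genes 1024 and 749 were higher in these settings, against 759 with edgeR. Among 16 tested enzymes that modify and fold collagen, 2 fell, none rose and the list's median was -0.01. PLOD3, which hydroxylates and glycosylates lysines, was at 22.5, 22.3 and 24.4 CPM in siIDT, sino4 and siSMPLT, against 33.4 and 40.5 CPM in siL2 and siNT (log2 fold change -0.68, adjusted p 0.0109, edgeR). COLGALT1, a collagen galactosyltransferase, fell by 0.47 (adjusted p 0.0327, edgeR). SERPINH1, the collagen chaperone HSP47, averaged 55.4 CPM with USP17 siRNA and 49.8 CPM with control siRNA. P4HB, a subunit of prolyl hydroxylase, averaged 617 CPM with USP17 siRNA and 695 CPM with control siRNA. PPIB, a proline isomerase, averaged 267 CPM with USP17 siRNA and 305 CPM with control siRNA. None of these 3 passed (adjusted p 0.363, 0.188 and 0.102, edgeR). Of 11 export genes SEC24D, a cargo adaptor of the vesicle coat, alone fell (log2 fold change -0.35, adjusted p 0.0266, edgeR). PREB and SEC23A had log2 fold changes of -0.16 and -0.20 and did not pass.

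TLL1, a procollagen C-proteinase, was the single pathway gene that rose. It was at 1.90, 1.64 and 1.63 CPM in siIDT, sino4 and siSMPLT, against 0.642 and 0.963 CPM in siL2 and siNT (log2 fold change 1.10, adjusted p 0.0313, edgeR). The other 9 tested genes of cleavage and cross-linking, among them MEP1B (log2 fold change -0.29) and PCOLCE2 (0.21), did not pass. Of 8 tested receptors ITGA2, the integrin alpha chain that binds collagen I, fell to 182 CPM with USP17 siRNA, against 253 CPM with control siRNA (adjusted p 0.0218, edgeR). ITGA10 and DDR1 had log2 fold changes of -1.54 and 0.26 and did not pass. ITGA10 had only 2, 8 and 8 reads in siIDT, sino4 and siSMPLT, against 25 and 13 in siL2 and siNT. TIMP3, a matrix-bound protease inhibitor, fell by 1.40 at levels of 0.351 CPM with USP17 siRNA and 0.930 CPM with control siRNA (adjusted p 0.0460, edgeR). This call was lost with limma-voom, with RSEM counts and without siIDT, sino4, siSMPLT or siNT. MMP16 and MMP2 had log2 fold changes of 0.49 and -1.23 and did not pass (adjusted p 0.0540 and 0.0764, edgeR).

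Of 12 tested partners of collagen IV in the basement membrane 4 fell and none rose, with a list median of -0.02. Over all tested genes 5.82% were lower and 4.64% higher. Laminins form the other polymer of that sheet. LAMC1, a gamma chain of most laminins, was at 151, 178 and 186 CPM in siIDT, sino4 and siSMPLT, against 318 and 270 CPM in siL2 and siNT. It differed by -0.78 ± 0.11 (SE) on the log2 scale (edgeR, adjusted p 0.00729). LAMB1, a beta chain, fell by 0.53 on the log2 scale and averaged 43.2 CPM with USP17 siRNA and 62.6 CPM with control siRNA (adjusted p 0.0176, edgeR). LAMA4, an alpha chain, fell by 0.77 and averaged 2.79 CPM with USP17 siRNA and 4.76 CPM with control siRNA (adjusted p 0.0312, edgeR). The laminins that were tested and did not pass mostly had positive log2 fold changes. These were 0.43 for LAMB2, 0.69 for LAMA3, 0.96 for LAMA2, 0.19 for LAMA5 and -0.45 for LAMC3 (adjusted p 0.0700 to 0.367, edgeR). Whether laminins and collagen IV differ in response was not tested.

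Of 9 tested regulators of collagen transcription 3 fell, against 5.82% of all tested genes, and the list's median was -0.42. SOX5 was at 61.5, 62.1 and 80.5 CPM in siIDT, sino4 and siSMPLT, against 110 and 128 CPM in siL2 and siNT (log2 fold change -0.80, adjusted p 0.0115, edgeR). SOX6 fell by 0.68 (adjusted p 0.0135, edgeR), and both are cartilage factors that act with SOX9 on collagen genes. RUNX2, a bone and hypertrophic cartilage factor that activates COL10A1, fell to 6.55, 7.496 and 7.91 CPM in siIDT, sino4 and siSMPLT, against 10.5 and 19.2 CPM in siL2 and siNT (adjusted p 0.0282, edgeR). SOX9, which is also on the cartilage marker list, had a log2 fold change of -0.81 that did not pass (adjusted p 0.0523, edgeR). In the TGF-beta pathway, a main inducer of collagen in fibroblasts, TGFB2 fell by 0.50 (adjusted p 0.0191, edgeR). The other 12 tested genes did not pass, with log2 fold changes of 0.24 for TGFBR1 and 1.37 for TGFBI. TGFBI had only 16, 11 and 6 reads in siIDT, sino4 and siSMPLT, against 4 and 5 in siL2 and siNT. Of the 14 pathway calls, 4 remained without siIDT, 1 without sino4 and 7 without siSMPLT. Over all tested genes, 759 were higher and 951 lower with all libraries. These counts fell to 135 and 214 without siIDT, 50 and 80 without sino4, and 425 and 616 without siSMPLT. LAMC1 was the pathway call that remained in each of these settings. TLL1, COLGALT1, ITGA2, RUNX2, TIMP3, SEC24D and LAMA4 lost their calls in each.

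**Figure D4:**
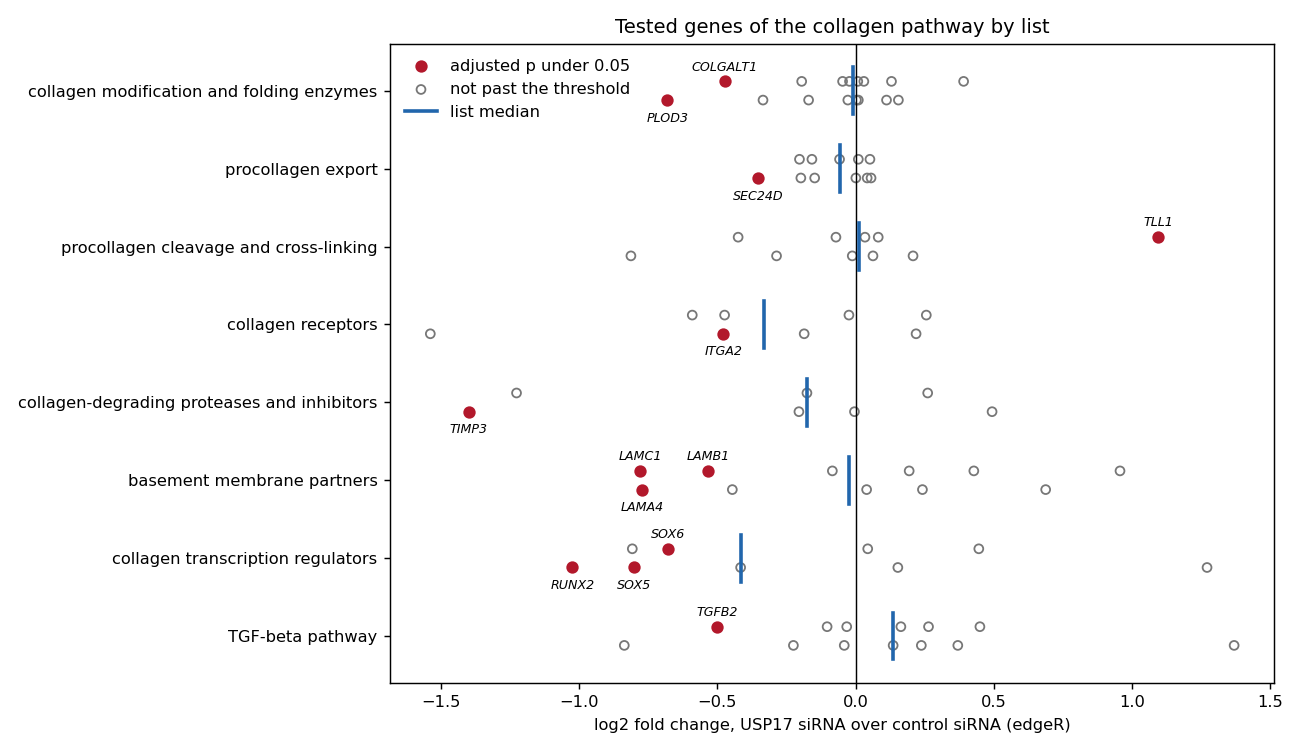
Log2 fold change, USP17 siRNA over control siRNA, of the tested pathway genes in 8 lists (rows), apart from 1 gene that is not shown and counts only toward its list's median. Filled red points have an adjusted p under 0.05 and carry the gene's name, open points do not pass and blue bars are list medians; the single filled point to the right of 0 is TLL1.

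Markers of other cell types that make collagen were followed beside these results. Of 10 fibroblast markers 5 were tested and none passed, DCN and LUM had at most 5 reads in any library, and MFAP5 had 0 in all. Their summed level was 169 to 179 CPM with USP17 siRNA and 160 to 198 CPM with control siRNA, mostly FBLN1 and FN1. Of 8 cartilage and tendon markers 3 were tested. TNMD, a tendon membrane protein, was at 3.61, 5.85 and 6.35 CPM in siIDT, sino4 and siSMPLT, against 1.08 and 0.764 CPM in siL2 and siNT (log2 fold change 2.51, adjusted p 0.00480, edgeR). HAPLN1, which links aggrecan to hyaluronan, was higher by 1.41 (adjusted p 0.0218, edgeR) and lost its call without siIDT, sino4 or siSMPLT. SOX9, the other tested marker of this list, went the other way and did not pass (log2 fold change -0.81, adjusted p 0.0523, edgeR). The defining cartilage genes ACAN and COMP had 0 reads in all libraries, and the list summed to 9.18 to 13.6 CPM with USP17 siRNA and 5.75 to 7.45 CPM with control siRNA. Endothelial markers summed to at most 0.350 CPM in any library. In bulk RNA a change in the number of cells that express a gene and a change in RNA per cell cannot be told apart.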

How the data were processed

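Poly(A) RNA from 5 libraries was sequenced by the authors. Per the submitters' processing notes, bcl2fastq 2.20, STAR 2.7.1a, RSEM 1.3.2 and GRCh38 were used; which annotation release they used is not given in the sources used here. Deposited counts are whole reads per gene in STAR's layout; reads on the strand of the gene were used, and the columns without regard to strand and on the opposite strand served as checks. Reads that did not map, lay on no gene or on several genes, or mapped to several places (22.8% to 24.4%) stayed out of library sizes and tests. The deposited expected counts and TPM come from RSEM, per the file headers, as do mean transcript lengths (bases, an other kind of value, in the deposited tables).

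Counts were fitted in R 4.3.3 with edgeR 4.0.16 (filterByExpr, minimum count 10 and total 15; TMM; quasi-likelihood F test, two-sided) on all genes, after a test on simulated data. CPM are scaled by TMM. SE was taken from the F statistic. Alternatives used DESeq2 1.42.0, limma 3.58.1, 2 other filters, unstranded counts, rounded RSEM expected counts and leaving out each library. Replicates follow sample order and pair nothing. Symbols came from a table of gene names, and coordinates from GENCODE 29, which lists 58405 of the 60651 genes. The longest annotated UTR of each gene was searched. Python 3.11.15 drew figures.

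Members and lists were chosen with earlier results of these data known. The text names every tested member and gives library values for those past the threshold, the 6 highest by TPM and partner chains, and up to 3 genes per list with the smallest p, with SERPINH1 and P4HB. Genes named outside this rule, such as SOX9, LAMA4 and adjacent genes, were chosen after their values were seen. A gene that the rule would name is not reported here; it stays in the counts and medians. Floors cover counting error only, while SD and SE also reflect the spread between libraries.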

Additional observations from a re-analysis of the deposited data

Results flagged for a closer look

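COL9A1 and COL24A1 had reads on the opposite strand, a column that entered no test of the report, that were higher in every USP17 siRNA library than in both controls. COL9A1 had 7, 2 and 7 such reads in siIDT, sino4 and siSMPLT, a mean of 5.33, against 0 in siL2 and 0 in siNT. These were 0.614% to 2.28% of its own-strand reads in the USP17 siRNA libraries. COL24A1 had 4, 10 and 4 such reads, a mean of 6.0, against 3 and 3. Its own-strand reads were 685, 569 and 582 in siIDT, sino4 and siSMPLT, against 150 and 196 in siL2 and siNT. COL10A1 had 3, 1 and 2 such reads, against 0 in siL2 and 0 in siNT. These genes also had more own-strand reads with USP17 siRNA.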

How the results depend on the processing

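COL10A1, COL9A1 and COL24A1 kept direction and call in all 12 alternatives, with log2 fold changes of 2.43 to 3.60, 1.77 to 2.13 and 1.77 to 2.11. The 5 members called higher numbered 3 to 6 when 1 library was left out, with 3 without siIDT and 3 without sino4, and 3 at an adjusted p of 0.01. The 2 called lower numbered 0 to 4 when 1 library was left out, 1 with limma-voom, with no filter and with RSEM counts, and 0 at an adjusted p of 0.01. The count without sino4 was 0. Over all tested genes, calls fell from 759 higher and 951 lower to 135 and 214 without siIDT, and to 50 and 80 without sino4. Without siSMPLT they were 425 and 616. Pathway genes numbered 0 to 5 higher and 1 to 19 lower when 1 library was left out, against 1 and 13; 5 were higher with DESeq2's Wald test and 3 with limma-voom. The family's median log2 fold change was 0.10 to 0.25 when 1 library was left out, 0.25 without siL2 and 0.22 without siNT, and 0.27 with a CPM of at least 1 in 2 libraries, which tests fewer genes.

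Signs turned only in members that did not pass in the fit with all libraries. When 1 library was left out, log2 fold changes ran from -0.022 to 0.24 for COL4A2, -0.31 to 0.13 for COL4A1, -0.11 to 0.34 for COL7A1, -1.11 to 0.71 for COL19A1, -0.52 to 0.25 for COL9A2, -0.70 to 0.22 for COL5A1 and -0.049 to 0.24 for COL6A3. With RSEM counts COL9A2 was at 0.14 and COL6A3 at -0.18. COL19A1 passed without siL2 (-1.11, adjusted p 0.0495, edgeR). A control left alone takes its spread from the USP17 siRNA libraries. For the other settings the cause was not tested. DESeq2 gave no adjusted p for TIMP3. No paired analysis was possible because the labels carry no replicate numbers. For members with under about 30 reads, the part of read depth in their results was not tested.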
